A study of Mus musculus with 6 samples.

Results

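The comparison described here sets the side population of GHCre mice after 10 days of diphtheria toxin (1 array) against the same sorted fraction after 3 days (2 arrays), which is 3 of the 6 arrays of the study. The GHCre mice had the genotype GHCre/iDTR, in which Cre recombinase under the growth hormone promoter acts on an inducible diphtheria toxin receptor. The controls (-/iDTR, 2 arrays after 3 days and 1 after 10 days) carried the receptor without Cre. All mice were female and all were given toxin, 4 ng per g of body weight in each of 2 daily doses over 3 or 10 days, so no group was left without it. Age and strain are not given in the sources used here. The anterior lobe was dissociated and cells were sorted for efflux of Hoechst dye, leaving out those of highest Sca1. Sorts yielded 25000 to 50000 cells in the typical case, from which 1 ng of RNA went into amplification for each array. Titles, genotype and toxin fields agree on these groups. The free-text description of the 10 day GHCre sample instead calls it an uninjured control of 3 days, and those of 2 controls call them regenerative. The fields were used.

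Growth hormone is made by somatotropes, the cells in which this Cre is active, and toxin entering through the receptor kills a cell by stopping protein synthesis. The side population is a small fraction enriched for pituitary stem cells, which pump the dye out through ABC transporters. It also holds other cells that efflux dye, and in RNA of a sorted fraction fewer cells of a type and less RNA per cell cannot be told apart.

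Levels are given as log2 of the signal over the 75th percentile of its array. Differences are 10 days minus 3 days on that scale. The GHCre arrays had 64.4%, 61.4% and 65.7% of probes well above background (in the order replicate 1 and replicate 2 of 3 days, then 10 days, kept for values below), against 53.8% to 63.1% in the controls. Across genes above background on all arrays, the 10 day GHCre array correlated at 0.909 and 0.934 with the 3 day arrays, which correlated at 0.924 with each other. Replicate 2 of 3 days was on the slide of the 10 day array, and replicate 1 was on another. The 10 day control was alone on its slide. Nothing in the labels says that replicates came from separate mice, so p-values measure the spread between these samples, which may be technical.

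Gh, the growth hormone transcript, was at 5.46 and 2.20 after 3 days and at 2.21 after 10 days in GHCre mice. The 10 day level equals that of 1 of the 3 day arrays within 0.01, so it does not lie outside their spread. In the controls Gh was at 5.69 and 3.65 and then 7.86, so Gh does not settle the free-text descriptions either. Prl, the prolactin transcript, was at 10.59, 10.35 and 10.82. Abcg2, a pump of Hoechst dye, was at 0.80, -0.09 and 0.04, and Ly6a, which encodes Sca1, at -0.47, -2.53 and -2.78. None of these moved beyond the 3 day values by log2 1. Of 18 stem cell markers, Sox9 was at 2.54, 1.75 and 1.82 and Sox21 at 2.45, 2.72 and 2.83, while Sox2, Hesx1 and Pax6 were not well above background on any GHCre array.

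Genes were described where the 10 day value lay at least log2 1 outside both 3 day values, with every array of the brighter side giving signal well above background. This was so for 1504 of 20923 genes or transcripts higher after 10 days (7.19%) and 1178 lower (5.63%). The same rule in the controls gave 1669 higher (7.98%) and 775 lower (3.7%). With limma across all 6 arrays, 0 genes passed an adjusted p of 0.05 in GHCre mice, in controls or for the difference between them. At an unadjusted p under 0.05 limma gave 448 higher (2.14%) and 393 lower (1.88%) in GHCre mice, and for the difference between genotypes 304 higher (1.45%) and 520 lower (2.49%). The genes below are therefore described by their values, and their size has no replicate check at 10 days. The 3 day GHCre replicates themselves differed by log2 1 or more for 6229 genes (29.8%). Against replicate 2 of 3 days alone, 2763 genes were higher and 2479 lower, and against replicate 1 alone 3933 and 2969, since a single value is easier to pass.

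Some genes past the rule had no signal above background on the dimmer side. Of the 1504 higher genes, 375 were not well above background on either 3 day array and 299 on only 1 of them. Of the 1178 lower genes, 334 were not well above background after 10 days. The median gap to the nearer 3 day value was 1.55 and 1.57, and 167 higher and 138 lower genes passed by less than 0.1. A further 226 and 162 genes came within 0.1 of passing. Where a gene had another probe above background, all of its other probes went the same way for 73.9% of the higher and 61.5% of the lower genes, against 59.9% of genes not past the rule.

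The genotypes shared a minority of these genes. In controls, 229 of the genes higher in GHCre mice were higher too (15.2% of the GHCre list and 13.7% of the control list), against 7.98% of all genes that were higher in controls. Another 91 were lower in controls (6.05%, against 3.7% of all genes). Of the genes lower in GHCre mice, 60 were lower in controls (5.09% of the GHCre list and 7.74% of the control list), whereas 180 were higher there (15.3%). Shares past the rule in controls were thus above those of all genes in both directions. These are counts over 1 array of 10 days per genotype.

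**Figure D1:**
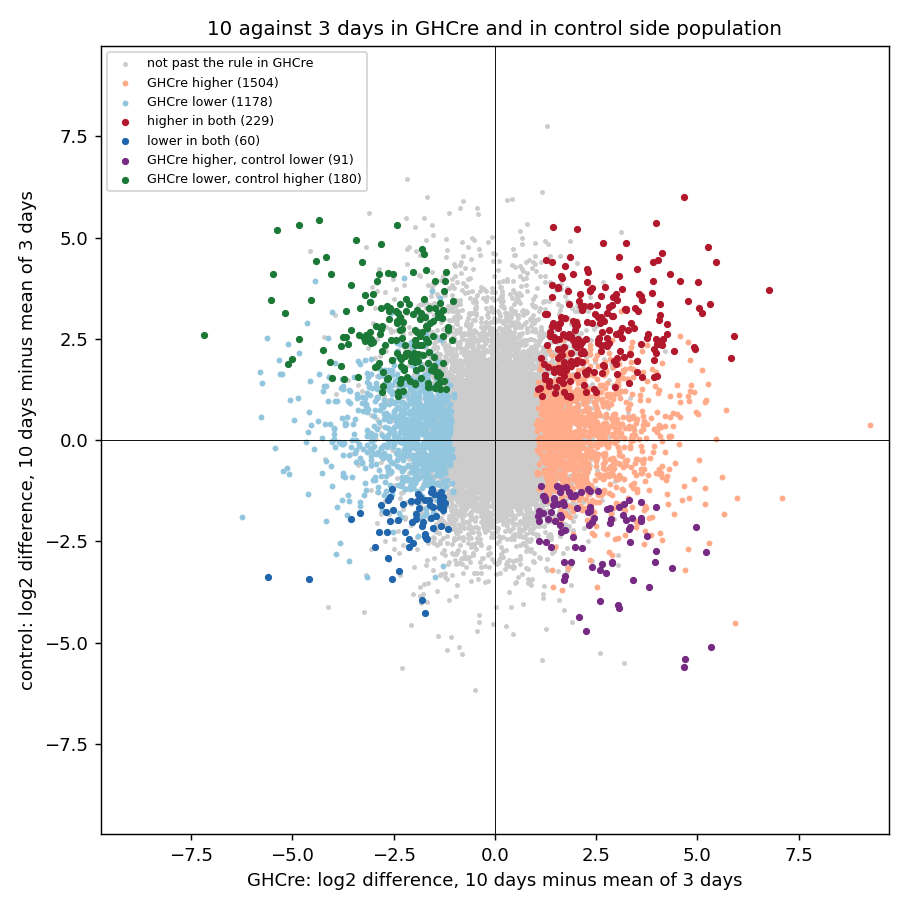
Each point is 1 of 20923 genes, with the log2 difference of 10 days minus the mean of 3 days in GHCre mice on the x axis and in controls on the y axis. Colours mark genes past the rule: 1504 higher and 1178 lower in GHCre mice, of which 229 and 60 went the same way in controls and 91 and 180 the opposite way.

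Interferon response genes, which cells switch on through factors such as STAT2 and IRF9 after interferon signalling, were lower after 10 days in the GHCre side population. Of 39 measured, 13 lay below both 3 day values by the rule (33.3%, against 5.63% of all genes) and 0 above. At any distance, 26 of 39 were below both (66.7%, against 28.1% of all genes). The median difference was -1.23, against 0.11 for all genes, with -1.59 against replicate 1 and -0.68 against replicate 2 on the shared slide. In controls the median was 0.58, with 8 genes past the rule higher and 0 lower.

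Usp18, a protease that removes ISG15 and dampens interferon signalling, was at -0.08 and -0.47 after 3 days and at -3.23 after 10 days, 7.73-fold lower. Its probe lies on chromosome 6 from 121220874 to 121220933 (mm9). The controls were at -2.50, -1.79 and, after 10 days, -1.40, so the 10 day GHCre value was below all of them. Mx1, an antiviral GTPase, was at 0.13 and -0.20 and then -2.49, 5.48-fold lower (probe on chromosome 16 from 97668644 to 97668703). It was not well above background on any control array, so its signal was measured in GHCre mice alone.

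The oligoadenylate synthetases make the messenger that activates RNase L. Oas2 was at 0.08 and -1.56 and then -3.52. Oasl1, a relative, was at 0.62 and 0.39 and then -1.28, 3.45-fold lower. Oas3 was at -3.99 and -2.80 and not well above background after 10 days. Oas1b, at 5.16, 5.04 and 5.30, was not lower, so members of this family did not all share the pattern.

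Ifit1 and Ifit2 encode proteins that bind viral RNA. Ifit1 was at 1.22 and -0.05 and then -1.27, and Ifit2 at 0.86 and -0.89 and then -2.74. The 3 day replicates of each lay more than log2 1 apart, and the differences from their mean were -1.86 and -2.72. Trim30a, a regulator of immune signalling, was at -1.11 and -1.90 and then -3.64. Ddx58, the RNA sensor RIG-I, was at 1.26 and 0.60 and then -0.44. Gbp3, a guanylate binding protein, was at 2.08 and 1.62 and then 0.43, and Gbp2 was at 3.41 and 2.54 and then 1.50. Mx2 and Ifi44 also passed, with differences of -1.43 and -2.27.

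Both transcription factors named above stayed short of the rule. Stat2 was at 2.96 and 2.16 and then 1.27, below both 3 day values. Irf9 was at 3.12 and 2.23 and then 3.10, between them. Isg15, a ubiquitin-like protein, was at 4.01 and 3.08 and then 3.16, within the 3 day range.

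Of the 13 genes, 9 had both 3 day GHCre values above all 3 control values. The rule chose these genes for 3 day values above the 10 day value, which favours such an order. The same count was not made over all lower genes. After 10 days, 8 of the 13 were within the range of the controls. Mx1 and Ifit1 were still above it, and Usp18 and Ddx58 were below it. Oas3 was not above background after 10 days or on 2 control arrays and has no order there. With normexp background correction, which pulls dim signals together, 4 of 39 passed the rule instead of 13 (Usp18, Mx1, Oasl1 and Gbp3). Over all genes 428 or 432 were then lower instead of 1178, depending on the scaling. The 4 interferon genes passed in all 5 other ways of computing the values.

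Lymphocyte markers summed to 34.0, 33.4 and 27.9 times the 75th percentile signal, with 7, 8 and 8 of 11 well above background and Cd79b and Ms4a1 on no GHCre array. Macrophage and myeloid markers summed to 171, 172 and 191, with 13, 13 and 12 of 16 above background and Aif1, C1qa and Mrc1 on no GHCre array. By gene, 8 of 13 macrophage and myeloid markers tested were below the 3 day mean and 5 above it. By the rule 2 were lower (15.4%, against 5.63% of all genes) and 0 higher. The lower ones were C1qc and Cx3cr1, a chemokine receptor (-0.37 and -1.27 and then -2.95). The part of lymphocytes, macrophages and myeloid cells in the interferon pattern was not tested.

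**Figure D2:**
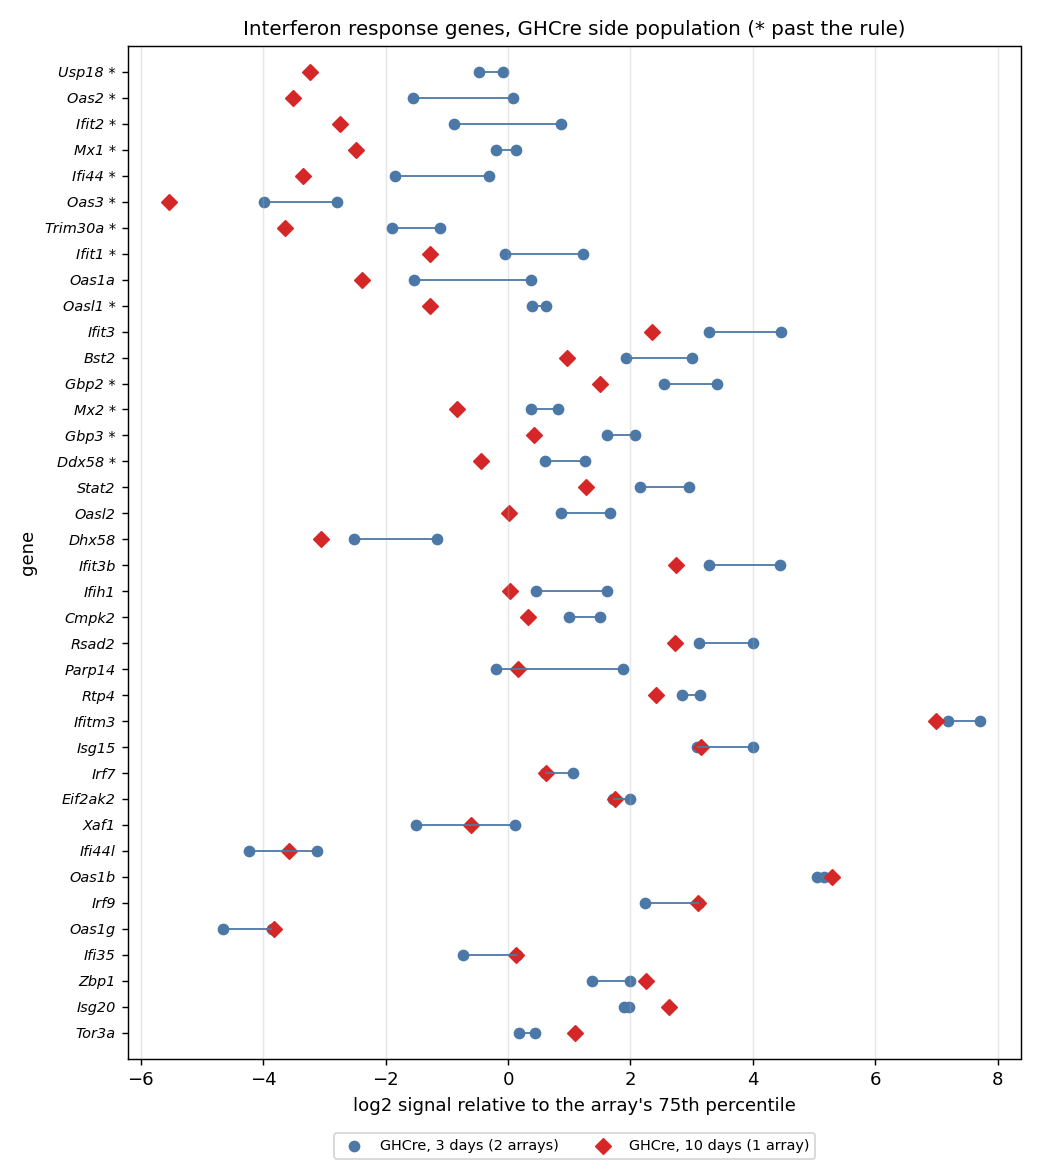
Log2 of signal over the 75th percentile of each array (x axis) of 38 of the 39 interferon response genes (y axis, ordered by difference) on the 2 arrays of 3 days (blue, joined by a line) and the array of 10 days (red) of GHCre mice. The red diamond lies left of both blue points for 25 of the 38 genes drawn, and 13 genes marked with a star are left by at least log2 1.

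The promoters of 4 of these genes are shown because they hold the core letters of the interferon-stimulated response element, GAAANNGAAA, which was searched on both strands of 300 bases from 250 before to 50 after each RefSeq start. Capitals mark the matches, and overlapping matches run together. Each line gives the 120 bases before the start, 5′ to 3′ on the gene's strand, in GRCm38.p6: Ifit1 at chr19:34640769-34640888 (plus strand), Gbp2 at chr3:142620543-142620662 (plus), Gbp3 at chr3:142559924-142560043 (plus) and Oas3 at chr5:120777660-120777779 (minus).
Ifit1: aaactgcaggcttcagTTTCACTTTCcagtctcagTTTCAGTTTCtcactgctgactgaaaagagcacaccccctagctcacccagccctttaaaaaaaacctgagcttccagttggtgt
Gbp2: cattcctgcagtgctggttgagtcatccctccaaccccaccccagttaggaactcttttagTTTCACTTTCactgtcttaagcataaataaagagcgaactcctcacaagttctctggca
Gbp3: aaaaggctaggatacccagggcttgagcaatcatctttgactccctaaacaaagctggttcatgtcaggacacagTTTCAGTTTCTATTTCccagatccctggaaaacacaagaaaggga
Oas3: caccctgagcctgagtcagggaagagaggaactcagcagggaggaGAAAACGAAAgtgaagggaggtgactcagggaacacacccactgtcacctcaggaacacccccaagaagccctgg
Matches in Ifit1, Gbp2 and Gbp3 are on the opposite strand and so read as the reverse complement, and that in Oas3 is on the gene's strand. Ifit1 and Gbp3 each hold 2 matches, which overlap in Gbp3. A promoter was found for 9 of the 13 lower genes, not for Usp18, Mx1, Oas2 and Mx2. Of the 9, 6 held a match (66.7%), and so did 11 of 19 list members not past the rule (57.9%). Of all 27025 genes with a promoter, 3.99% did. A match describes the letters of the window and is not a binding site.

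Collagens and other matrix genes, the secreted scaffold around cells, were lower by a similar amount. Of 29 measured, 9 passed the rule lower (31.0%, against 5.63% of all genes) and 1 higher, and 26 were below both 3 day values (89.7%, against 28.1%). The median difference was -1.03, with -1.31 and -0.75 against replicates 1 and 2. In controls it was -0.00. With normexp 9 were lower too, while the lower genes in all fell from 1178 to 428 or 432. The normexp counts of the lists below stand beside that fall over all genes.

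Fbn1, which encodes the microfibril protein fibrillin, was at 0.71 and 0.46 after 3 days and at -1.72 after 10 days, 4.95-fold lower. Its probe lies on chromosome 2 from 125126727 to 125126786 (mm9). In controls Fbn1 went from -0.57 and -0.37 to 0.63. The fibrillar collagens Col1a1 and Col3a1 were at 2.85 and 2.38 and then 0.80, and at 2.82 and 2.12 and then 0.70. Both 10 day values were below all 3 controls, which lay from 1.38 to 2.30.

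Other members past the rule were also lower, with 1 exception. Eln, elastin, was at 1.13 and 1.61 and then -0.41, but its controls spanned -1.92 to 2.34. Fbln5, which helps assemble elastin, was at 0.33 and 0.14 and then -1.51. Fbln1 was at 6.54 and 6.05 and then 5.03, and its 2 other probes went the same way. Col15a1, of basement membrane zones, was at -0.12 and 0.26 and then -1.75, with 1 of its 2 other probes going the other way. Col5a1 (-1.21) and Spp1, osteopontin (-1.67), also passed. The exception was Fbln2, at -2.02 and -1.28 and then 0.13.

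Other matrix genes were below both 3 day values without passing the rule. Dcn, the proteoglycan decorin, was at 7.07, 6.63 and 6.46, and Col1a2 at 5.74, 5.95 and 5.22. Sparc was at 5.30, 4.93 and 3.96.

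Most fibroblast and mural cell markers moved with this list, with 12 of 15 below both 3 day values (80.0%, against 28.1% of all genes). All 15 were well above background on every GHCre array, and their summed signal was 445, 363 and 254, against 310, 228 and 269 in controls. Without the 5 genes also in the matrix list, the sums were 222, 177 and 112. By gene, 3 of 15 passed the rule lower, namely Col1a1, Col3a1 and Tagln, a smooth muscle actin-binding protein (4.60, 4.00 and 2.99), and the median was -0.54. Pdgfra, at 2.21, 2.23 and 1.95, and Pdgfrb, at 5.15, 4.63 and 4.17, did not pass it. The mural markers Rgs5 (1.66, 0.39 and 1.11), Acta2 (0.02, -2.50 and -1.27) and Cspg4 (-3.71, -2.39 and -2.47) lay between their 3 day values. The part of fibroblast number in the matrix pattern was not tested.

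**Figure D3:**
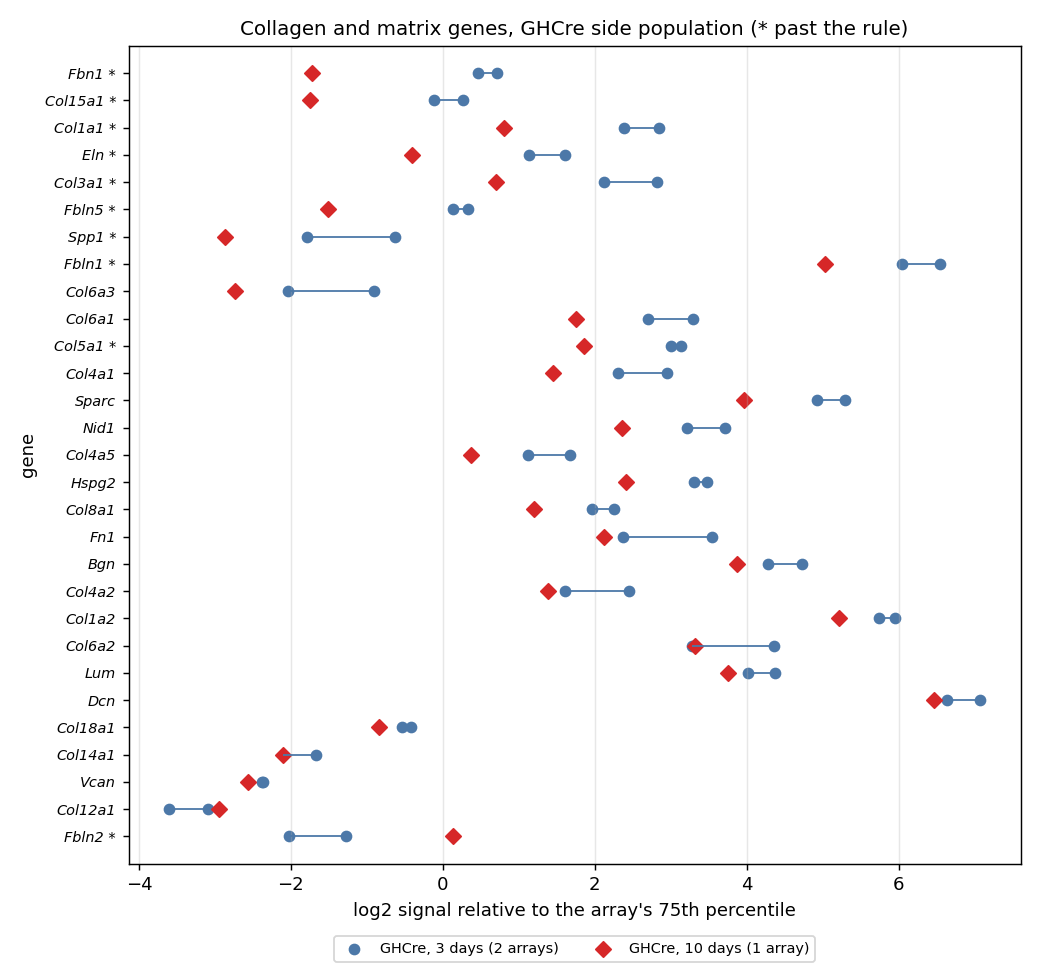
Log2 of signal over the 75th percentile of each array (x axis) of the 29 collagen and matrix genes (y axis, ordered by difference) on the 2 arrays of 3 days (blue) and the array of 10 days (red) of GHCre mice. In 26 genes the 10 day value lies below both 3 day values, and Fbln2 at the bottom lies above them.

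Genes that cut or anchor the matrix were lower less uniformly. Of 27 matrix proteases and inhibitors, 5 were past the rule lower (18.5%, against 5.63% of all genes) and 1 higher. The median was -0.53. Lists were described in depth only at 2 times the share of all genes or more in 1 direction, so such shares exceed it by choice. Plaur, the urokinase receptor, was at 0.97 and 0.64 and then -1.27. Timp1, an inhibitor of metalloproteinases, was at 0.50 and -0.46 and then -1.48. Adam17, which sheds cytokines and receptors from the cell surface, was at -0.07 and -0.80 and then -2.29, with its other probe going the same way. Mmp3, stromelysin, was measured after 3 days at -1.79 and -2.82 and not after 10 days, at least 3.9-fold lower. Mmp17 went the other way, from -0.47 and -0.15 to 1.69, and was higher in controls too. With normexp 1 gene was lower instead of 5, beside 428 or 432 of all genes instead of 1178.

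Of 24 integrins and laminins, 3 were past the rule lower (12.5%, against 5.63% of all genes) and 1 higher. The median was -0.27 (-0.37 and -0.12 against replicates 1 and 2). Lama1, a laminin chain of basement membranes, was at -0.28 and -0.96 and then -3.24, and Itga8, an integrin chain, at 1.28 and 0.59 and then -1.24. Both were below all controls.

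Complement genes, the plasma proteins that tag cells for clearance, had 4 of 18 past the rule lower and 0 higher. The lower share was 22.2%, against 5.63% of all genes, and the median was -0.53. Cfb, factor B of the alternative pathway, was at 0.73 and 1.78 after 3 days and -2.49 after 10 days, 13.4-fold lower. That value was within the controls (-1.57, -3.10 and -1.07). C4b was at 0.99 and 1.41 and then -0.78, still above the controls. C3, the central component, was at 1.28, 2.17 and 2.16. With normexp 2 complement genes were lower instead of 4.

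Inflammatory cytokine and acute phase genes went both ways. Of 24, 6 were past the rule lower (25.0%, against 5.63% of all genes) and 3 higher (12.5%, against 7.19%). The median was -0.30. Csf1, the macrophage growth factor, was at 1.10 and 1.64 and then -0.42, and its 2 other probes agreed. Saa2, a serum amyloid, was at -1.63 and -1.79 and not above background after 10 days, at least 5.9-fold lower. Tnf, tumour necrosis factor, was higher, from -3.87 and -3.19 to -0.46, 8.41-fold. Il6, at 4.22, 4.36 and 3.87, and the prostaglandin synthase Ptgs2, at 2.69, 2.13 and 1.66, were below both 3 day values without passing. With normexp 1 or 2 genes of this list were lower, depending on the scaling, and 1 was higher.

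Of 30 chemokines and receptors, 4 were past the rule lower (13.3%, against 5.63% of all genes) and 1 higher. The median was -0.49 (-0.31 against replicate 2 alone). Ccl11, eotaxin, was at 3.08 and 2.22 and then 0.96, and Ccl8 at -0.34 and -0.53 and then -1.75. Both stayed above every control. Ccl3 was at -1.58 and -1.38 and not above background after 10 days. Ccl9 went the other way, from -0.98 and -0.11 to 1.77. Cxcl10, an interferon-induced chemokine, was at 4.39, 3.16 and 2.91. With normexp 1 or 2 chemokine genes were lower instead of 4, depending on the scaling.

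Hedgehog signalling runs from the receptor Ptch1 and its partner Smo to the Gli factors. Of 14 genes 5 were past the rule lower (35.7%, against 5.63% of all genes) and 1 higher. The median was -1.15 against the 3 day mean, but -0.17 against replicate 1 and -0.57 against replicate 2, so its size depends on how the 3 day arrays are combined. Gli1, a target and effector of the pathway, was at 1.55 and 0.68 and then -2.63, 13.4-fold lower, but its other probe did not go the same way. Cdon, a coreceptor, was at 0.99 and 1.03 and then -1.41. Hhip, which binds hedgehog ligands, was at -1.41 and -2.00 and then -3.70. Sufu, which restrains Gli factors, was at 0.92 and -0.17 and then -1.36. The 10 day values of Gli1, Cdon, Hhip and Sufu were below every control, and Disp1, the other lower gene, was not above background after 10 days. Ptch1, at -0.07, -0.47 and 0.21, and Smo, at 6.18, 6.12 and 6.33, were not lower. With the mean of all probes or with normexp, 2 genes were lower instead of 5. Over all genes 1034 were lower with the mean of all probes and 428 or 432 with normexp, instead of 1178.

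Of 21 mitotic genes 5 were past the rule lower (23.8%, against 5.63% of all genes) and 0 higher. The median was -0.65 (-1.55 against replicate 1 and -0.45 against replicate 2). Aurka, the mitotic kinase aurora A, was at -0.16 and 1.34 and then -3.09, 12.8-fold lower. Mki67, the proliferation marker, was at -1.62 and -2.97 and then -4.10. Cenpe, Ccnb2 and Bub1b were not above background after 10 days, and with normexp Aurka alone of the list passed.

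Among 14 measured stem cell markers 3 were past the rule lower (21.4%, against 5.63% of all genes) and 0 higher. Aqp3, a water and glycerol channel, was at 1.06 and 0.00 after 3 days and not above background after 10 days, at least 27.8-fold lower. It was not above background on any control array either. Krt8, a simple epithelial keratin, was at 0.14 and 0.50 and then -1.53, with its other probe going the same way. Rbpms was at 0.08 and 0.09 and then -1.40, and its 2 other probes went the same way. Krt18, the partner keratin of Krt8, was at 1.84, 2.37 and 2.33. The list's median was -0.24 (-0.51 and -0.02 against replicates 1 and 2), so these 3 genes do not stand for the list. With the mean of all probes 1 of the 14 was lower instead of 3, beside 1034 of all genes instead of 1178.

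ABC transporters, the family of the dye pumps, had 7 of 31 past the rule higher and 3 lower. These shares were 22.6% and 9.68%, against 7.19% and 5.63% of all genes. Of the 12 lists described in depth, ABC transporters alone had more members past the rule higher than lower. At any distance 13 of the 31 were above both 3 day values, a share near that of all genes (41.9% against 39.2%). Another 7 were below both (22.6%, against 28.1%). The median was 0.15 (0.50 against replicate 1 and 0.06 against replicate 2). Abcb1b, a multidrug pump, was at -3.64 and -0.92 and then 0.22, and Abcb1a at -1.47 and -2.12 and then -0.38. Abcc10 was at -4.02 and -1.46 and then 0.60. Abca1, the cholesterol exporter, was lower, at 3.51 and 3.64 and then 2.49. With normexp 3 were higher, beside 582 or 523 of all genes instead of 1504.

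**Figure D4:**
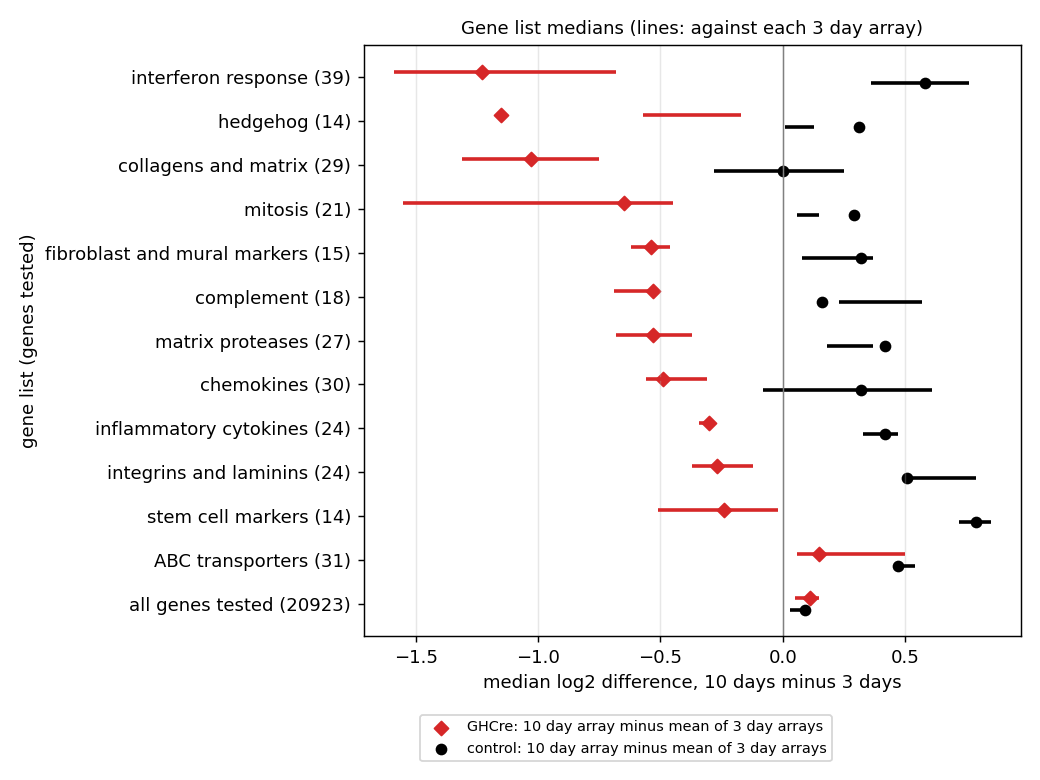
Median log2 difference of 10 days minus 3 days (x axis) for the 12 lists described in depth and all genes tested (y axis), with the difference from the 3 day mean as points and lines running between the medians against each 3 day array, in GHCre mice (red) and controls (black). The interferon list stands at -1.23 in GHCre mice and 0.58 in controls, and all genes at 0.11 and 0.09.

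Single genes of the largest gaps lay mostly outside these lists. Golga5, a golgin of the Golgi membrane, was at -0.07 and 0.45 after 3 days and at 9.46 after 10 days, 617-fold higher (probe on chromosome 12 from 103735935 to 103735994, mm9). The controls were at -1.51, -0.12 and -0.43, so 1 array of 6 was high, through the only probe. Enox2, a cell surface oxidase, was at -3.67 and -3.36 and then 2.20. Tbc1d20, which acts on the GTPase Rab1, was at 0.58 and 0.01 and then 4.35. Syn2, a synaptic vesicle protein, was at -3.08 and -1.77 and then 2.35. Mrrf, the mitochondrial ribosome recycling factor, was at -2.95 and -3.58 and then 1.29, with its other probe going the same way.

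Of the 12 higher genes of largest gap, Gdf9, Xkr7, Ubxn10 and Tafa3 were not above background on at least 1 of the 3 day arrays. Mageh1, Zfp383 and Treml4 were above background on all 3 GHCre arrays and 18.5-fold, 19.0-fold and 20.5-fold higher. None of the 12 was past the rule in controls, where 7.98% of all genes were higher and 3.7% lower. With 12 genes and such shares, this does not set them apart.

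On the lower side, Prkca, protein kinase C alpha, was at 2.04 and -0.15 and not above background after 10 days, at least 37.1-fold lower, with its other probe going the same way. It was higher after 10 days in controls, at -1.63 and -1.29 and then 1.14. Fibin was at 1.57 and 1.58 and then -2.09, 12.7-fold lower, where all controls were at 0.97 or higher. Hacd4, of fatty acid elongation, was at 0.58 and 0.71 and then -3.49, and Colgalt2, which glycosylates collagen, was at 1.52 and 0.48 and not above background after 10 days, at least 38.6-fold lower, and past the rule lower in controls too. Evc, a ciliary protein of hedgehog signalling, was at 0.36 and 0.02 and then -3.97. Vit, Arhgef10, Zfp882 and Unc119 were not above background after 10 days, with bounds from 12.1-fold to 26.7-fold.

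**Figure D5:**
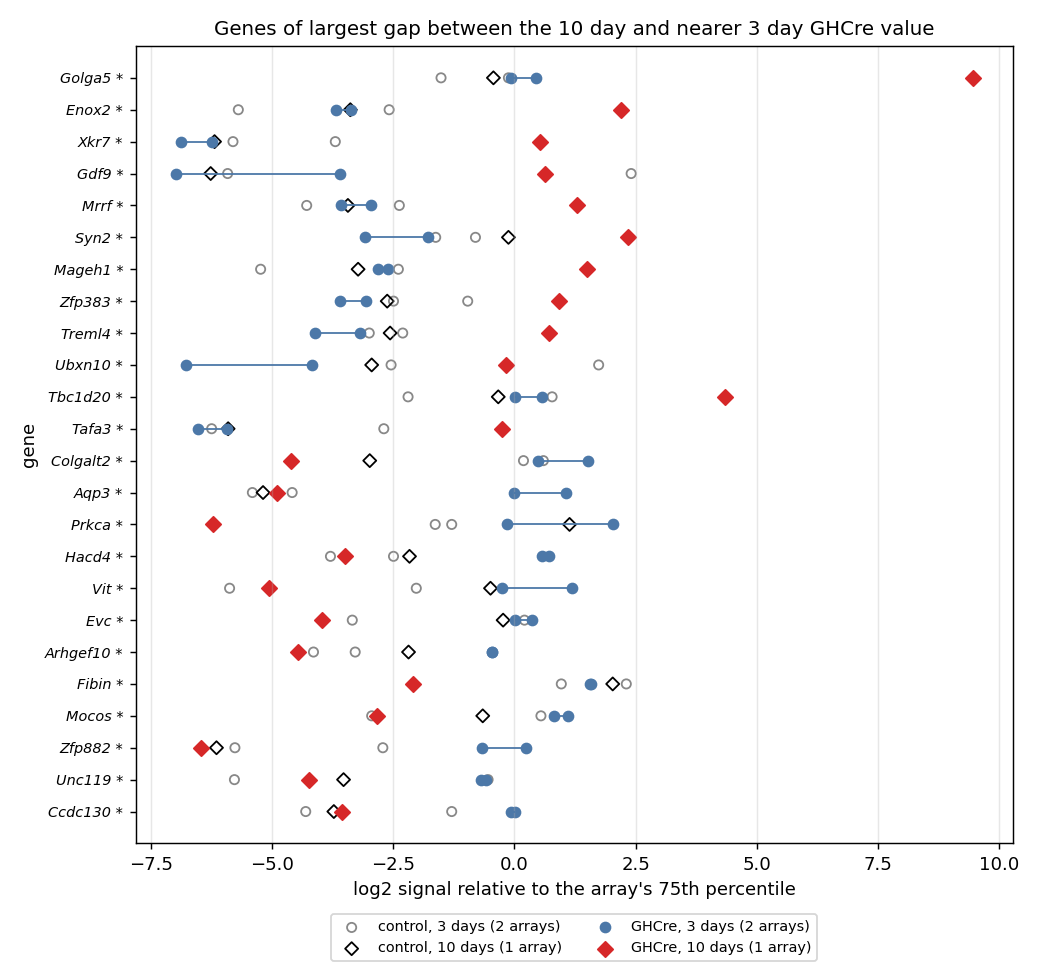
Log2 of signal over the 75th percentile of each array (x axis) of the 24 genes with the largest gap between the 10 day and the nearer 3 day GHCre value (y axis), 12 higher and 12 lower, with values not above background as measured. Golga5 at 9.46 stands apart from the other 5 arrays, which lie between -1.51 and 0.45.

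Among other cell types, S100b, a marker of folliculostellate cells, was at 2.36 and 2.00 and then -0.73, 7.54-fold lower (chromosome 10 from 75723783 to 75723842, mm9). The summed signal of the 8 markers of these cells was 54.0, 36.7 and 31.5, against 56.3, 38.0 and 35.0 in controls. By the rule 2 of the 8 were lower (25.0%, against 5.63% of all genes). Slc1a2 passed the other way, at -6.82 and -4.15 (neither above background) and then -2.20, and was higher in controls too. Cga, the alpha subunit common to the glycoprotein hormones, was at 1.16 in replicate 1 of 3 days and at -3.35 after 10 days, with replicate 2 between them, whereas the controls went from 1.34 and -3.47 to 3.88. Summed somatotrope markers were at 96.3, 128 and 148 and gonadotrope and thyrotrope markers at 251, 236 and 265, without the order of Gh or Cga. Oxt, of the neural lobe that was removed before sorting, was at -4.32 and -2.96 and then -0.44. The 5 red cell markers were split, with a median of 0.89 (-0.22 against replicate 1 and 1.03 against replicate 2). Hbb-bt, a globin, was at -1.54 and -1.65 and not above background after 10 days, and Slc4a1, the anion exchanger band 3, was higher, at -2.51 and -2.19 and then -0.73.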

How the data were processed

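RNA of sorted side population cells was amplified, labelled with Cy3 and hybridised in 1 colour to 6 Agilent mouse arrays. Per the file headers, the authors quantified spots with Feature Extraction (version 10.7.3.1), whose processed signal, an intensity, has had background subtracted and spatial trends removed but is not scaled from array to array. A series table of log2 values, also deposited, covers 38017 probes, which correlated at 0.9999 or more with quantile normalized processed signal and served as an alternative. Precision is limited by the number of arrays.

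From 43020 spots, replicate spots of 39429 probes were averaged on the log2 scale, and the log2 of each array's 75th percentile was subtracted. No spot was saturated. Probes were named through RefSeq accessions (27234 probes) or symbols (4141), and 8054 kept the file's name. Probe positions are those of the files' mm9 annotation. Each gene took its probe of highest mean level. A gene was tested if well above background on at least 2 arrays, which 20923 of 30119 genes or transcripts were. A fold written as "at least" raises values not well above background to the lowest signal of the array that is. Promoters came from RefSeq on GRCm38.p6 and were not joined to mm9 positions.

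Group means of the 4 groups were fitted in limma 3.58.1 (R 4.3.3), and p-values were adjusted by Benjamini-Hochberg against 0.05. With 2 residual degrees of freedom, both from 3 day arrays, there is no spread at 10 days, so the lone 10 day arrays are assumed to vary like them. Of 1214 entries in 49 gene lists, 1089 were tested. Lists were described in depth where at least 3 members passed the rule in 1 direction, at 2 times the share of all genes or more. Named genes are Gh, Prl, Pomc, Sox2, Ly6a and Abcg2, the 12 in each direction with a symbol and the largest gap whose other probes went the same way, up to 6 members past the rule in each list described in depth and up to 3 in other lists. Some genes of the lists are counted but not reported here by name. Other genes named were chosen after their values were seen. The members and lists were chosen with earlier results of these data known. Alternatives were other scalings, normexp background correction (offset 50), the series table, the mean of all probes, other filters and distances, blocks and leaving out each 3 day array. Plots used matplotlib 3.10.9 (Python 3.11.15).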

Additional observations from a re-analysis of the deposited data

Results flagged for a closer look

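The following went one way between 3 and 10 days in GHCre mice and the other way in controls, against each 3 day array. For lists this is by the sign of the median alone, at any size. With 1 array of 10 days per genotype this is a comparison of 2 arrays with their 3 day pairs. For single genes the difference was tested with limma, and 0 of 20923 passed (520 lower and 304 higher at an unadjusted p under 0.05). For lists it was not tested. For all genes the median of the difference was 0.03.

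The median over genes of the GHCre difference minus the control difference was -1.42 for stem cell markers, -1.13 for the interferon response, -1.13 for hedgehog signalling, -1.11 for integrins and laminins, -1.01 for fibroblast and mural markers and -0.90 for matrix proteases. It was -0.86 for both inflammatory cytokines and complement, and -0.66 for mitotic genes. Some of these lists hardly moved on 1 side. Against replicates 1 and 2 of 3 days, control medians were 0.01 and 0.13 for hedgehog signalling and 0.06 and 0.15 for mitotic genes. For all genes they were 0.08 and 0.03. The GHCre median of stem cell markers was -0.02 against replicate 2.

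Among single genes past the rule in opposite directions, C1qc, a chain of complement C1q that macrophages make, differed by -10.15, with signal at 0.32 and -3.03 after 3 days and none above background after 10 days in GHCre mice, and the reverse in controls (-5.78 and -6.37, then -0.76). Prkca differed by -9.76, Vit by -8.99, Ackr3 by -7.36, Aurka by -6.22 and Cd59a by -5.96. After 10 days C1qc, Prkca, Vit and Ackr3 were not above background in GHCre mice, and neither were Arhgef10, Disp1 and Itgb4 below, so these differences are as measured and have no order. Among interferon genes the difference was -5.60 for Oas2, -5.07 for Ifit2, -4.29 for Trim30a and -3.90 for Oasl1. It was -5.53 for Arhgef10, -5.24 for Disp1, -4.94 for Itgb4, -3.88 for Hp, -3.69 for Abcc9, -3.19 for Rbpms and -2.60 for Adamts9. In controls of 3 days Oas2 was not above background on either array, Trim30a not on replicate 2 and Cd59a not on replicate 1. The sizes of these differences are thus as measured too.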

How the results depend on the processing

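Limma called 0 genes for 10 against 3 days and for the difference of effects in every setting run, and the lowest adjusted p in GHCre mice lay between 0.482 and 1. The replicate number as a block called 0 genes, as did the slide as a block. Nothing in the labels pairs the numbers, and deviations of same-numbered 3 day arrays correlated at 0.087 over genes. A slide block could be fitted for GHCre mice only, since the 10 day control was alone on its slide.

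Counts past the rule moved with several settings. Higher and lower counts in GHCre mice were 582 and 428 after normexp scaled to the 75th percentile, 523 and 432 after normexp with quantile normalization, 623 and 674 with signal on all 6 arrays and 470 and 351 at a distance of log2 2. In controls they were 483 and 244, 543 and 284, 632 (higher alone) and 607 and 167. Those shared in direction were 31 and 11, 34 and 9, 49 (higher alone) and 52 and 5, with 95 lower under quantile normalization and 93 with the series table. Leaving out a 3 day array gave 2763 to 3933 higher and 2479 to 2969 lower in GHCre mice, 3436 to 4471 and 2585 to 2629 in controls, and 387 to 501 and 143 to 213 shared. Of the main counts, 582 higher and 425 lower genes also passed after normexp scaled to the 75th percentile.

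The medians of 11 of 12 lists kept their sign in all 8 alternatives, and that of ABC transporters ran from -0.10 to 0.50. These alternatives are not all distinct. The comparison within the slide is the same as leaving out replicate 1 of 3 days, and the series table nearly repeats quantile normalization. The interferon median lay between -1.59 and -0.68 and the matrix median between -1.31 and -0.75. The hedgehog median was -0.47 and -0.50 with normexp, -0.61 with the mean of all probes and -0.57 within the slide, from -0.57 to -0.17 with an array left out. The complement median was -0.74 with quantile normalization and the series table, -0.34 and -0.40 with normexp and -0.88 with the mean of all probes, and -0.69 to -0.55 with an array left out. The inflammatory median was -0.29, -0.26, -0.25 and -0.21 with quantile, either normexp scaling and mean of probes, -0.32 within the slide and -0.34 to -0.32 with an array left out. For chemokines it was -0.31 within the slide and -0.56 to -0.31, for mitosis -1.55 to -0.45 and for ABC transporters 0.06 to 0.50 with an array left out. Among 149 named genes, Nsdhl and Mcoln1 changed sign with the mean of all probes (0.05 each). The median difference of all genes was 0.11, and 0.01 with normexp and quantile normalization. Why these values moved was not tested.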

Other observations

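Gene groups outside the 12 lists described in depth gave a mixed account of GHCre mice after 10 days. Immediate early genes had 2 of 30 past the rule lower, a share near the 5.63% of all genes, namely Egr3 (0.76 and 0.57, then -1.90) and Egr4 (1.22 and 2.08, then -1.43), and a list median of -0.10. Of 21 genes of the IL6 pathway 2 were lower and 1 higher (9.52% and 4.76%, against 5.63% and 7.19% of all genes). The receptor Il6ra was at 0.92 and 1.36 and then -1.48, and Lifr at 2.70 and 1.71 and then 0.29. Of 22 antigen presentation genes 2 were lower (9.09%, against 5.63% of all genes) and 0 higher. H2-Ab1, an MHC class II chain, was at 1.90 and 0.88 and then -1.31, and Tap2, a peptide transporter, at 1.68 and 1.70 and then 0.28. Of 40 Wnt genes 4 were lower and 3 higher (10.0% and 7.5%, against 5.63% and 7.19% of all genes). Rspo3, which enhances Wnt signalling, was at -0.15 and -0.52 and then -3.10, while Wnt10a was higher, from -3.95 and -4.20 (the latter not above background) to -0.36. Of 25 Notch genes 3 were higher (Dtx1, Mfng and Jag2) and 1 lower, with a median of 0.04. Over all genes 7.19% were higher and 5.63% lower. The other probe of Mfng did not go the same way, and Jag2 was not above background on either 3 day array. The lower gene was Heyl, a Notch target, at 0.69 and 0.79 and then -1.50.

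Zeb1, a factor of epithelial-mesenchymal transition, was higher, at 1.92 and 1.48 and then 3.12. Among 22 genes of that transition 3 were higher and 2 lower (13.6% and 9.09%, against 7.19% and 5.63% of all genes). Twist2 and Ocln were the other higher genes, and Cldn6 and Prrx1 were the lower ones. The list's median was -0.13, so Zeb1 does not stand for the list. Of 19 cilia genes 2 were higher and 2 lower (10.5% each, against 7.19% and 5.63% of all genes). Wdr78 was at -0.66 and -0.92 and not above background after 10 days, while Ccdc39 went from -1.51 and -0.33 to 1.81. Among 33 p53 and apoptosis genes 1 was higher and 3 lower (3.03% and 9.09%, against 7.19% and 5.63% of all genes). The higher gene was Pmaip1, the apoptosis gene Noxa, at -2.22 and, not above background, -6.30, and then 0.84. Tnfrsf10b, Apaf1 and Bcl2l11 were the lower genes, and the list's median was -0.06. Cytosolic ribosomal protein genes had 0 of 78 past the rule in either direction with a median of 0.07, oxidative phosphorylation genes 0 of 48 (-0.15) and heat shock genes 0 of 17 (0.12). These groups lay near the median of all genes (0.11), whereas NF-kB pathway genes had 0 of 25 past the rule with a median of -0.49.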
